A study of Mus musculus with 12 samples.

Results

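The AP-1 transcription factor family was followed through 8 genes, Fos, Fosb, Fosl1, Fosl2, Jun, Junb, Jund and Atf3, by taking every probe set that the array annotation assigns to 1 of these genes alone. This gave 12 probe sets of the 45101 on the array, of which 64 are controls, and 8 of the 18194 genes that the annotation names. Fosl1, Fosl2, Jun and Jund are each read by 2 probe sets and the other 4 genes by 1. RNA of mouse CD4+ T cells was hybridised to 12 arrays (Affymetrix GeneChip for the mouse genome) in 4 groups of 3. The first pair of groups came from female mice aged 40 weeks, and all 6 of these samples had been stimulated with PMA and ionomycine, a phorbol ester and a calcium ionophore that bypass the T cell receptor. The SKG group was FR4- CD4+ cells from lymph nodes (LN) of SKG mice on the BALB/c background, a strain with a point mutation in Zap70 that develops autoimmune arthritis. The BALB group was BALB/c cells, with replicates 2 and 3 prepared as the SKG samples, while replicate 1 is labelled as CD4+ cells without the FR4 gate and as coming from spleen and LN. FR4 (Izumo1r) is a surface marker of regulatory T cells, so the FR4- gate leaves out cells that carry it. The labels do not divide the remaining CD4+ cells into naive and effector cells. The other pair of groups came from the spleens of female lymphocyte-deficient hosts aged 7 weeks, 7 days after they received T cells, and no stimulation is named for them. In the IFNg KO transfer, CD4 T cells of IFNg KO BALB/c donors were in RAG2 KO BALB/c hosts, and in the IL-6 KO transfer, cells of IL-6 KO donors were in hosts lacking both IL-6 and RAG2. The donor and host genotypes of this pair therefore cannot be told apart, and RAG2 KO hosts keep their own myeloid and stromal cells. No label says whether replicates came from separate mice, so the p-values below measure the spread between these samples, which may be technical.

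AP-1 is not a single protein but a dimer of basic leucine zipper proteins: a Jun protein pairs with another Jun, with a Fos protein or with a member of the ATF group such as Atf3, while Fos itself does not form stable pairs with other Fos proteins. The dimers bind short DNA elements in the promoters and enhancers of many genes. In T cells, protein kinase C and calcium signals switch on Fos and Jun genes within minutes, and AP-1 together with NFAT then drives cytokine genes. Fos, Fosb, Jun, Junb and Atf3 are classical immediate-early genes, Fosl1 and Fosl2 usually follow later, and Jund is present in resting cells of most tissues.

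Replicate 3 of both transfer groups stood apart from replicates 1 and 2. Its ratio of 3' to 5' signal for actin was 5.13 in the IL-6 KO transfer and 3.81 in the IFNg KO transfer, against 1.60 to 1.67 on the other 4 transfer arrays, and for Gapdh it was 9.33 and 7.99 against 2.42 to 2.84. The actin ratio ranged from 2.95 to 3.98 in BALB and from 1.93 to 2.63 in SKG, so every BALB array was above every SKG array. The Gapdh ratios of these groups overlapped, at 2.86 to 3.28 in BALB and 2.57 to 3.03 in SKG. Ifng, the gene knocked out in 1 transfer group, read 8.86 to 9.77 there and 13.52 to 13.56 in the IL-6 KO transfer on the log2 scale. Il6 was not lower in the group labelled IL-6 KO, at 5.66, 5.84 and 8.02, than in the IFNg KO transfer, at 4.55, 4.77 and 6.83, so the signal of this probe set does not check that label. The T cell genes Cd4, at 6.60 to 8.77, and Cd3e, at 6.86 to 9.60, were above the filter floor of 4.73 on all 12 arrays.

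In stimulated cells, most Fos and Jun genes were lower in SKG than in BALB. Junb was the clear exception, and Fosl2 was called only on the dimmer of its 2 probe sets. Of 12 probe sets, 7 were called lower and none higher (limma, Benjamini-Hochberg adjusted p under 0.05), and the 7 belong to Fos, Fosb, Fosl1, Fosl2, Jun and Jund. Over all 27022 probe sets tested, 9.89% were called lower and 10.3% higher. All 12 members passed the filter on low signal. The median log2 fold change of the 12 was -0.89, beside 0 over all probe sets tested. On 8 of the 12 probe sets every SKG array was below every BALB array, a pattern seen in 18.7% of all probe sets tested. In bulk RNA, fewer cells of a type and less RNA per cell cannot be told apart. Values below are log2(intensity + 16) after quantile normalization, given for replicates 1, 2 and 3 in that order.

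**Figure D1:**
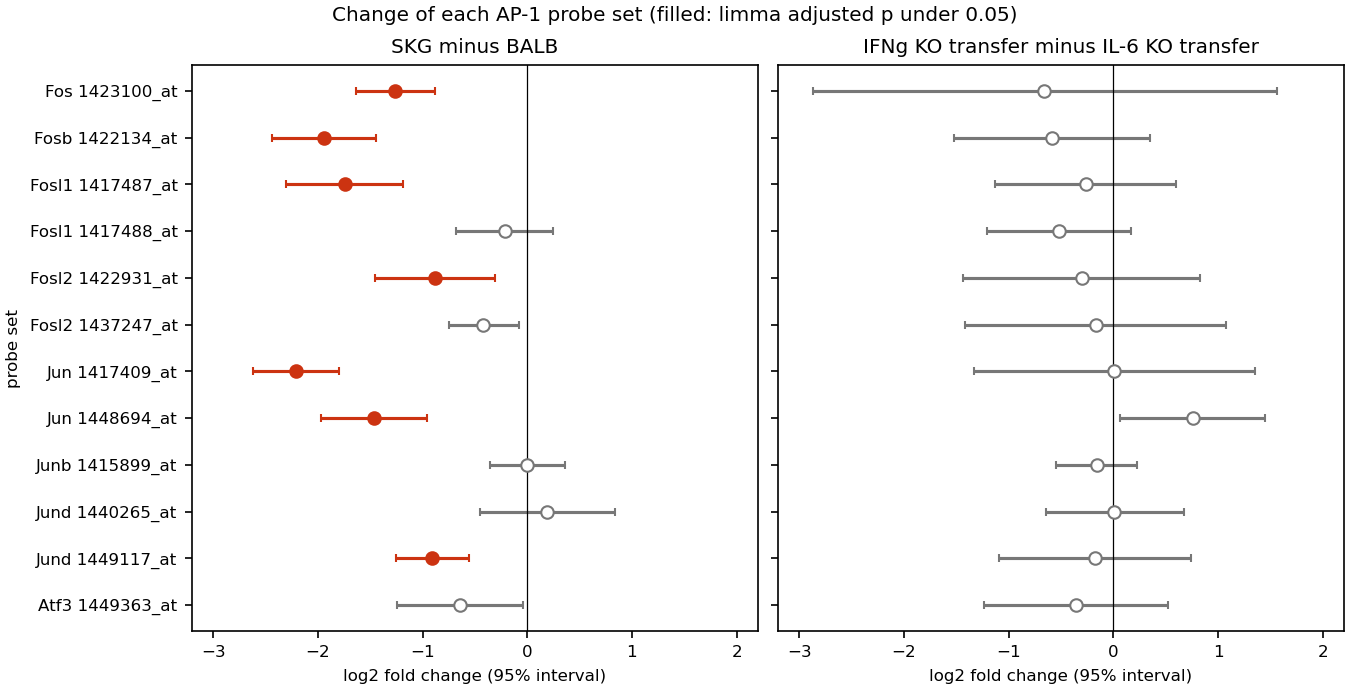
Log2 fold change (x axis) of each of the 12 AP-1 probe sets (y axis) in SKG minus BALB (left) and IFNg KO minus IL-6 KO transfer (right), with 95% intervals from limma and 3 arrays per group. Filled points passed an adjusted p of 0.05: 7 on the left, all below 0, and 0 on the right, where the intervals of most probe sets are wider.

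Among the Fos proteins, Fos itself (probe set 1423100_at), the founding partner of Jun, read 11.31, 11.31 and 11.96 in SKG and 12.69, 12.78 and 12.89 in BALB. The groups did not overlap, and the lowest BALB array was above the highest SKG array. Fos was 2.4-fold lower in SKG, with a log2 fold change of -1.26 ± 0.17 (SE, n = 3 and 3) and a limma adjusted p of 0.0014. This call was lost when the spread was estimated from all 12 arrays together (adjusted p = 0.28), a fit that takes in the transfer arrays on which Fos varied most. Fosb (1422134_at), a close relative of Fos, read 6.0, 6.35 and 6.78 in SKG against 8.27, 8.23 and 8.44 in BALB. It was 3.83-fold lower in SKG, with a change of -1.94 ± 0.22 (SE, n = 3 and 3; limma adjusted p = 0.000681). Within SKG, replicate 3 was the highest array for both genes.

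The Fos-related genes Fosl1 (Fra-1) and Fosl2 (Fra-2), whose proteins lack the strong activation domain of Fos, were less uniform. Fosl1 on probe set 1417487_at read 6.64, 6.61 and 7.41 in SKG and 8.63, 8.42 and 8.85 in BALB, a change of -1.74 ± 0.25 (SE, n = 3 and 3; limma adjusted p = 0.00173). Its other probe set, 1417488_at, is dim, with intensities of 10.4 to 51.7 over the 12 arrays, and gave -0.21 ± 0.21 (limma adjusted p = 0.525). The pair of Fosl1 probe sets thus differed in size of change, and the fall rests on the brighter one. Fosl2 on 1422931_at read 6.10, 5.98 and 6.55 in SKG and 7.03, 6.71 and 7.54 in BALB. The change of -0.88 ± 0.25 passed narrowly (limma adjusted p = 0.0374). It no longer passed without BALB replicate 1 (0.0903), BALB replicate 3 (0.087), SKG replicate 1 (0.123) or SKG replicate 2 (0.132), nor without normalization (0.14), without the filter (0.0811) or with all 12 arrays in 1 fit (0.164). The far brighter Fosl2 probe set 1437247_at read 11.79, 11.52 and 11.18 in SKG against 11.87, 11.87 and 11.99 in BALB, and its change of -0.42 ± 0.15 did not pass (limma adjusted p = 0.0837). Without SKG replicate 1 it was -0.56 and passed (0.0419).

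Among the Jun proteins, Jun itself, which can form AP-1 on its own or with Fos, had the largest fall of the 12 probe sets in this fit. On probe set 1417409_at it read 8.42, 7.82 and 8.16 in SKG and 10.38, 10.28 and 10.37 in BALB. The BALB arrays lay close together and far above every SKG array. Jun was 4.63-fold lower in SKG on this probe set, with a change of -2.21 ± 0.18 (SE, n = 3 and 3; limma adjusted p = 0.000154). The other Jun probe set, 1448694_at, read 6.69, 6.68 and 6.93 against 8.12, 7.90 and 8.67, a change of -1.46 ± 0.23 (limma adjusted p = 0.00253). Both probe sets of Jun therefore fell, by different amounts.

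Junb (1415899_at), a Jun relative that binds DNA less strongly as a homodimer and can oppose Jun at some genes, did not follow. It read 10.12, 10.13 and 10.09 in SKG and 9.90, 10.04 and 10.41 in BALB. The SKG arrays lay inside the BALB range, and the change was 0.00 ± 0.16, with a 95% interval of -0.36 to 0.36 and a limma adjusted p of 1.0. The interval leaves out falls of the size seen for Fos, Fosb or Jun. Jund (1449117_at), the Jun protein of resting cells, read 10.90, 10.56 and 10.66 in SKG and 11.49, 11.45 and 11.90 in BALB. It was 1.87-fold lower, with a change of -0.91 ± 0.15 (SE, n = 3 and 3; limma adjusted p = 0.00389), a call lost with all 12 arrays in 1 fit (0.0703). The other Jund probe set, 1440265_at, had intensities of 2.6 to 25.1 over the 12 arrays, close to the floor, and gave 0.19 ± 0.29 (limma adjusted p = 0.692).

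Atf3 (1449363_at), a stress-induced member of the ATF group that pairs with Jun proteins, turned on 1 array. It read 10.27, 9.90 and 11.08 in SKG and 11.11, 11.27 and 10.80 in BALB, so SKG replicate 3 lay above BALB replicate 3. The change of -0.64 ± 0.27 had a 95% interval of -1.24 to -0.04 and did not pass (limma adjusted p = 0.129). Without SKG replicate 3 it was -0.97 with an adjusted p of 0.00468.

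**Figure D2:**
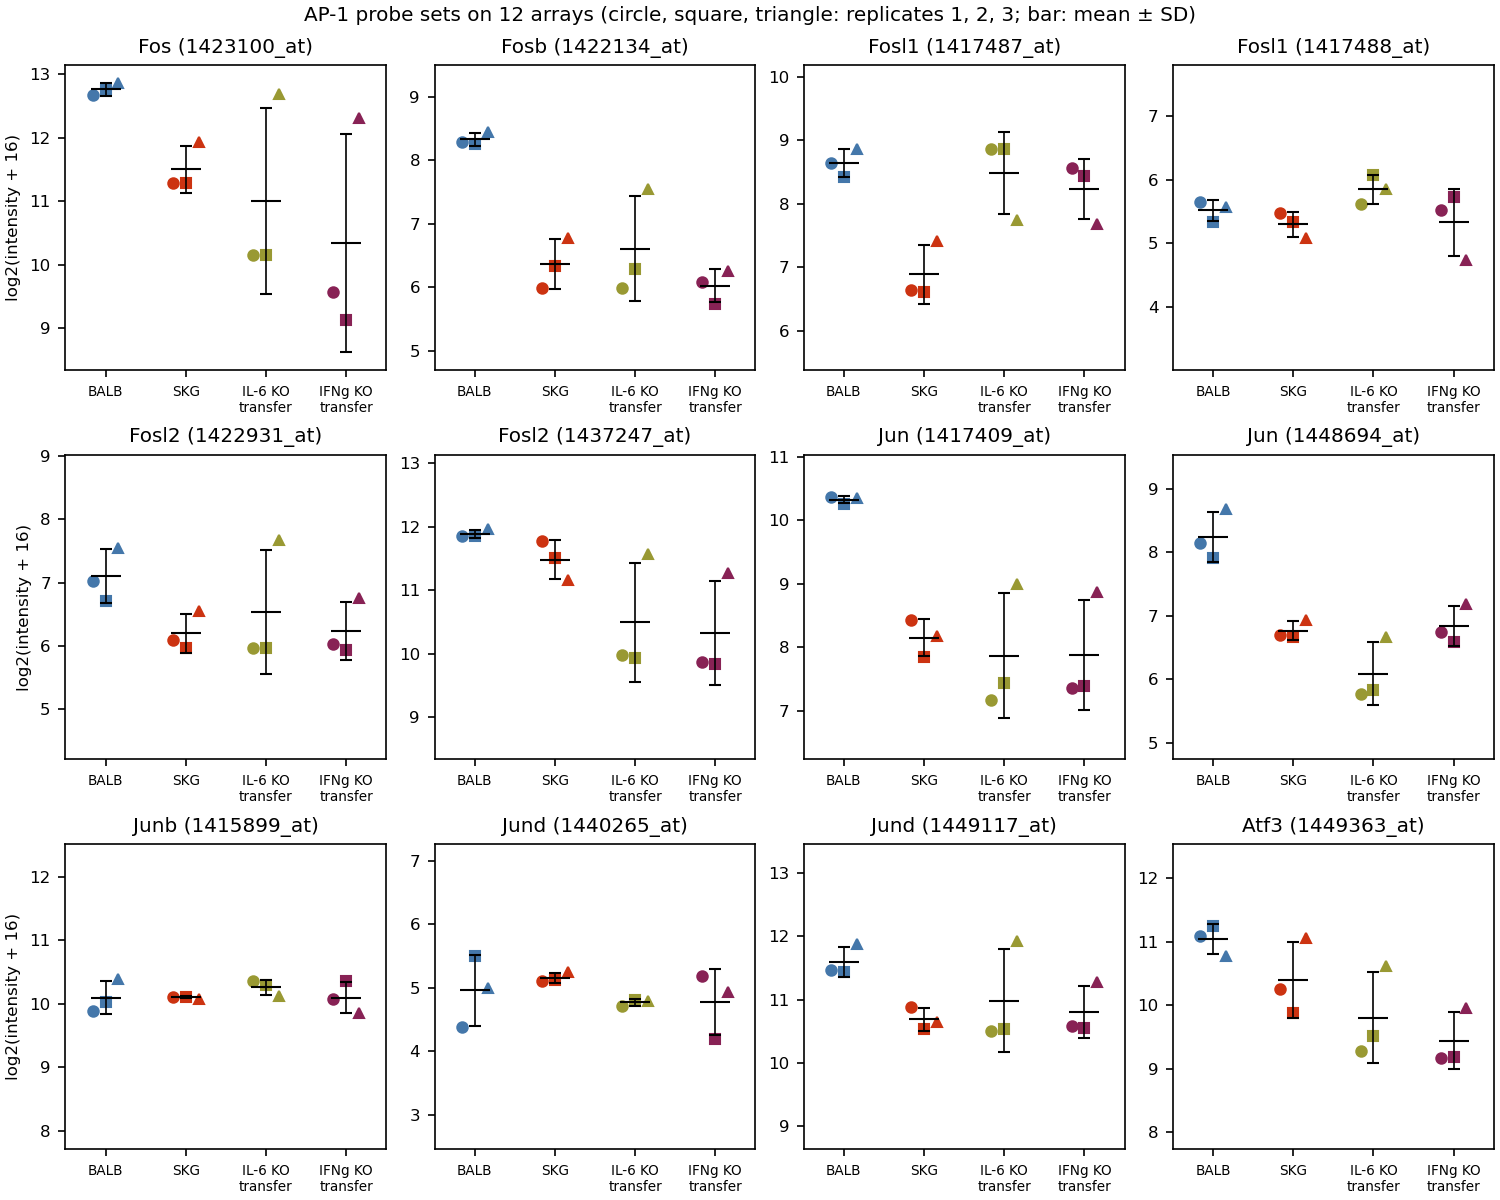
Log2(intensity + 16) of the 12 AP-1 probe sets (1 panel each; y axis) on each array of the 4 groups (x axis) after quantile normalization of all 12 arrays. For Fosb and both Jun probe sets the BALB arrays lie above all others, Junb spans 0.53 over all 12 arrays, and for Fos the arrays of replicate 3 of both transfer groups reach the stimulated groups.

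The promoters of these genes differ, and the 250 bases before the RefSeq start (GRCm38.p6) are shown for Fos, Fosb and Jun, which fell, and for Junb, which did not. Fos lies on the plus strand (chr12:85473640-85473889), and Fosb (chr7:19310046-19310295), Jun (chr4:95052223-95052472) and Junb (chr8:84978749-84978998) lie on the minus strand, and each is printed 5′ to 3′ along its gene. Capitals mark matches on either strand to the AP-1 element TGANTCA, to the longer element TGANNTCA with room for any pair of central bases, or to the core of the CREB element, TGACGT; these motifs can overlap. The set of motifs was chosen after the sequences had been seen.
Fos: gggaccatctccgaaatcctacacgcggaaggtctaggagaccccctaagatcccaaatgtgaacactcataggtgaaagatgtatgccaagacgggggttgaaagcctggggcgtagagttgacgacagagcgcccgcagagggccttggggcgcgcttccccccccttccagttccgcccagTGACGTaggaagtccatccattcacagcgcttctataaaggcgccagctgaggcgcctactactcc
Fosb: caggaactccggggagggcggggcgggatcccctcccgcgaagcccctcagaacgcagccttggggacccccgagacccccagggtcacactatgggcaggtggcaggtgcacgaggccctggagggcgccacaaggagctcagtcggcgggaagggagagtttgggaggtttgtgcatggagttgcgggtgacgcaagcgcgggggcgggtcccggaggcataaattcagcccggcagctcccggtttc
Jun: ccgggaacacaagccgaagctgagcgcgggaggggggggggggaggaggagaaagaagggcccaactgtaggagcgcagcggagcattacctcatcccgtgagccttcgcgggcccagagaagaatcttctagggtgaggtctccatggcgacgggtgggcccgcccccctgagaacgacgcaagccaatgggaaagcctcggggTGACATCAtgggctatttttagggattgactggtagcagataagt
Junb: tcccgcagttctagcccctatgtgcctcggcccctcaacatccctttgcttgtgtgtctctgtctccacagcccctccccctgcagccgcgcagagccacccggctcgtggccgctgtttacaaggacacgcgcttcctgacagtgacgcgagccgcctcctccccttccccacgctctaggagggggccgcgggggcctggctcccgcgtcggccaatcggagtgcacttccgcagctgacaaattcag
The Fos window holds TGACGT starting 66 bases before the start and TATAAA at 33 bases. The Jun window holds TGACATCA, a match to the longer element, at 45 bases and CCAAT at 65 bases. The Junb window holds CCAAT at 36 bases and no match to the capitalised motifs, and the Fosb window holds none of the 6 motifs searched, which were the 3 above, the TATA and CCAAT boxes and the CArG box bound by serum response factor. Of the other members, Atf3 has ACGTCA, the reverse strand of TGACGT, at 8 bases, Jund has TGAAATCA at 61 bases and Fosl2 has no match, while Fosl1 was not matched to an entry. Among 32851 RefSeq windows of this length, 6.75% hold the AP-1 element, 11.9% the longer element, 6.47% the CREB core, 1.47% the CArG box, 12.4% the sequence TATAAA and 33.8% the sequence CCAAT. A match describes letters in this window only.

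Genes around AP-1 changed in both directions in SKG. The lists were chosen with earlier results of these data in view. Their counts are small, and those that moved by over 1.5 times when 1 array was left out are given with it. Leaving out 1 array also moved the calls over all probe sets, which were 5446 with all 6 arrays. They were 3154, 3713 and 5009 without BALB replicates 1, 2 and 3, and 2938, 2967 and 6472 without SKG replicates 1, 2 and 3. When arrays sharing a replicate number were compared with each other (the replicate block), they rose to 7518, of which 51.1% were higher. A list count that moved with them does not set that list apart from other genes. In each list below, a gene is read by its brightest probe set and called by the same limma fit. The background in that fit was 10.3% higher and 9.89% lower. List counts with the replicate block belong beside its 7518 calls instead. Of 21 other basic leucine zipper genes, 3 rose and 3 fell, with a median log2 fold change of 0.13. Bach1 (-2.5 ± 0.16, adjusted p = 4.71e-05), a repressor that pairs with small Maf proteins, and the small Maf gene Maff (-1.89 ± 0.14, 0.000108) fell. Maf (2.92 ± 0.40, 0.00156), a large Maf factor that activates Il4, and Creb1 (1.03 ± 0.15, 0.00185), which binds cyclic AMP response elements, rose. Of 15 kinases and adaptors that lead to AP-1, 4 fell and 1 rose, with a median of -0.34. The p38 kinase Mapk14 changed by -1.59 ± 0.18 (adjusted p = 0.000599), the NF-kB adaptor Bcl10 by -0.63 ± 0.12 (0.00556) and the ERK pathway kinase Map2k1 by -0.60 ± 0.13 (0.0107), while the stress kinase kinase Map3k5 changed by 0.74 ± 0.16 (0.0127). Without BALB replicate 1 or SKG replicate 1, 2 kinases and adaptors fell, and without SKG replicate 1 or 2 none rose, while the replicate block gave 6 lower and 1 higher. Without SKG replicate 3, 6 of the other basic leucine zipper genes rose, and with the block 4 of them were called higher and 4 lower.

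Of 12 factors that switch on the Fos and Jun genes, 3 rose and 4 fell, with a median of -0.22. Creb1 is also in this list. Elk4, a partner of serum response factor, changed by -0.65 ± 0.13 (adjusted p = 0.00789), Mrtfa, another partner, by -1.07 ± 0.22 (0.0102) and the kinase Rps6ka5 by -1.0 ± 0.22 (0.0129). Without any single one of BALB replicates 1 and 2 and SKG replicates 1 and 2, 1 factor rose, and without SKG replicate 2, 2 fell, while the block gave 4 higher and 6 lower. Of 9 genes for turnover of AP-1 proteins and messages, 2 rose and 2 fell. The ubiquitin ligase genes Nedd4 (1.21, adjusted p = 0.00313) and Det1 (0.74, 0.041) were higher, and Zfp36l2 (-0.79, 0.00288) and Zfp36 (-0.65, 0.0156), whose proteins bind AU-rich messages and promote their decay, were lower. Leaving out any 1 of the 6 arrays left 1 turnover gene called higher, and without BALB replicate 2 there was 1 lower.

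Other immediate-early genes fell more often than they rose. Of 16 tested, 9 fell and 1 rose, and their median was -0.50. The MAP kinase phosphatase genes Dusp1 (-2.39 ± 0.15, adjusted p = 4.29e-05) and Dusp5 (-1.83 ± 0.18, 0.00036) and the orphan receptor gene Nr4a1 (-1.17 ± 0.09, 0.000133) fell. Egr1, a zinc finger factor of the same early wave, rose by 0.88 ± 0.13 (adjusted p = 0.00198). Between 8 and 9 fell when 1 array was left out, and 2 rose without SKG replicate 3.

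Of 14 textbook AP-1 target genes tested, 6 rose and 2 fell, with a median of 0.19. The T cell cytokine gene Il4 was higher by 4.25 ± 0.31 (adjusted p = 8.58e-05) and Csf2, which encodes GM-CSF, by 2.56 ± 0.35 (0.00149). The matrix genes Mmp13 (2.5 ± 0.26, 0.00047) and Timp1 (2.04 ± 0.30, 0.00209) rose as well. Each of these 4 read lowest in SKG on replicate 3, where Il4 was 12.58 against 13.62 and 13.66, Csf2 was 11.11 against 12.71 and 12.45, Mmp13 was 8.54 against 9.26 and 9.46, and Timp1 was 7.24 against 8.39 and 8.3. The 2 target genes that fell were Plaur (-2.95 ± 0.49, limma adjusted p = 0.00345) and Fasl (-0.73 ± 0.15, 0.00822). With the block 4 target genes were called lower, as without SKG replicate 3. Among 10 heat shock genes, Hspe1 rose by 0.31 (adjusted p = 0.03) and no other passed, and 0 passed without BALB replicate 1 or 2 or SKG replicate 1 or 2.

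**Figure D3:**
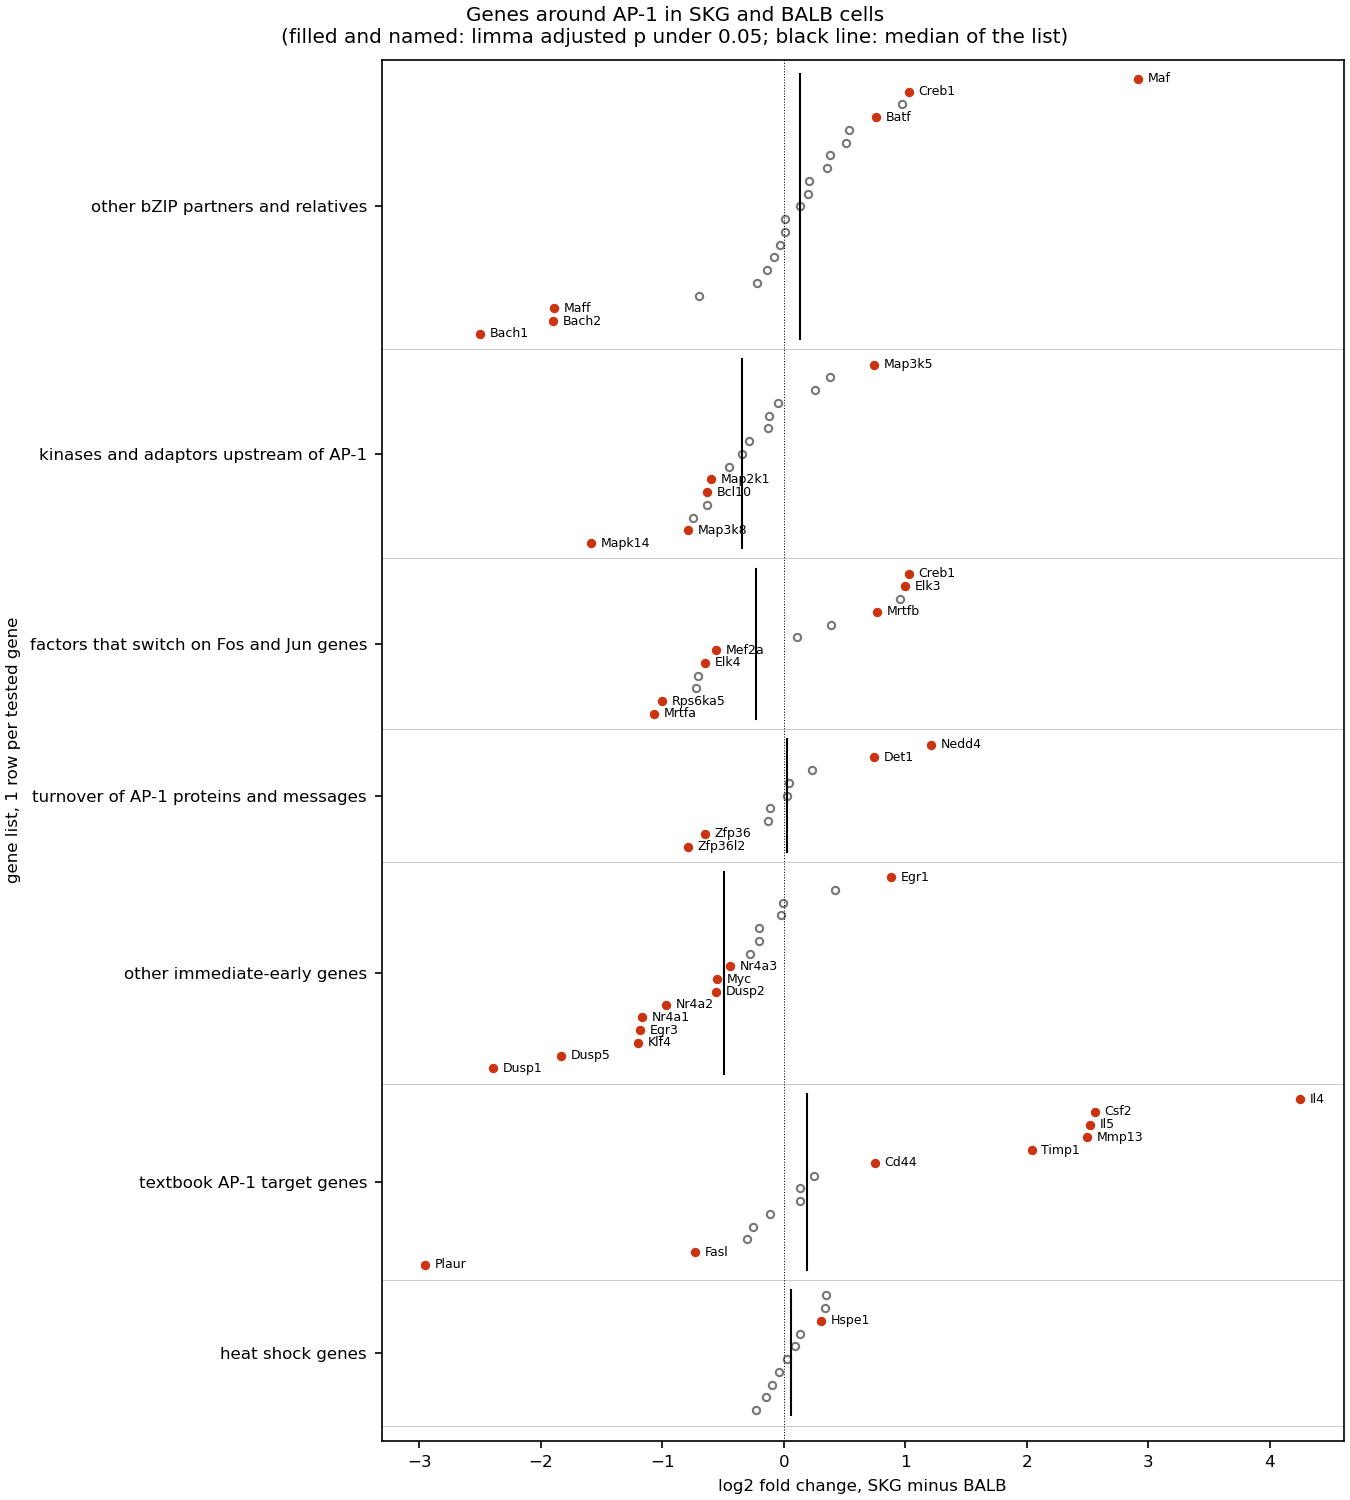
Log2 fold change in SKG minus BALB (x axis) of the tested genes of 7 lists around AP-1 (y axis, 1 row per gene), from 3 arrays per group. Filled and named points passed a limma adjusted p of 0.05 and black lines mark list medians, which lie between -0.50 for other immediate-early genes and 0.19 for AP-1 target genes.

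Some cell type markers differed between SKG and BALB. Of 6 T cell markers, Thy1 was called higher (1.44, limma adjusted p = 0.000533) and Cd5 lower (-0.97, 0.00623). With the replicate block Cd3g was called higher as well (0.000668). Summed B cell marker intensity was 634.7 to 3034.9 in BALB and 3394.0 to 5552.2 in SKG. Of 4 tested B cell markers 1 was called, Ighm, at 1.93 higher. Ighm alone read 596.5 to 2805.2 in BALB and 3285.4 to 5448.8 in SKG, so these sums were mostly its signal. The CD8 and NK cell markers did not move together. Cd8b1 was called at -2.48, with intensities of 208.4 to 278.9 in BALB and 10.0 to 95.7 in SKG. Cd8a, the other of the 2 tested, gave 0.81 and was not called (unadjusted p = 0.0201, limma adjusted p = 0.0803), with intensities of 7.0 to 15.3 and 15.3 to 46.9. The summed intensity of this list, 219.6 to 312.2 in BALB and 30.0 to 168.2 in SKG, is therefore mostly that of Cd8b1 in BALB. Of 6 macrophage and dendritic cell markers 0 were called and 1 had an unadjusted p under 0.05 in limma, with sums of 135.8 to 239.4 in BALB and 146.6 to 182.1 in SKG. With the replicate block 1 of them, Cd68, was called lower (limma adjusted p = 0.0279). The part of any of these markers in the AP-1 differences was not tested, nor was that of the FR4 gate and tissue of BALB replicate 1. The part of the actin 3' to 5' ratio, higher on every BALB array, was not tested either. Without BALB replicate 1, Jun, Fos, Fosb, Fosl1 on 1417487_at and Jund on 1449117_at were still called lower.

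Between the transfer groups, no AP-1 probe set of 12 was called by limma, and 1, Jun 1448694_at, had an unadjusted p under 0.05. The comparison called 0.0444% of all 27022 probe sets, and 4.1% had an unadjusted p under 0.05, so few genes of any kind passed. The groups overlapped on every AP-1 probe set. Fos (1423100_at) read 9.56, 9.13 and 12.30 in the IFNg KO transfer and 10.15, 10.14 and 12.67 in the IL-6 KO transfer. Both groups thus held a pair of arrays near 10 or below and a single array above 12. The change of -0.66 had a 95% interval from -2.87 to 1.56. With the replicate number as a block, which sets array against array of the same number, Fos was lower by the same amount with a limma adjusted p of 0.0274, where 1.17% of all probe sets were called. It was the only AP-1 probe set called with the block. With replicates 1 and 2 alone, Fos (-0.78, limma adjusted p = 0.0104) and Jun 1448694_at (0.90, 0.0298) were called, where 2.68% of all probe sets were.

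Jun 1448694_at read 6.74, 6.59 and 7.20 in the IFNg KO transfer and 5.77, 5.83 and 6.66 in the IL-6 KO transfer, a change of 0.76 ± 0.30 with a 95% interval of 0.06 to 1.45. The brighter Jun probe set 1417409_at did not share it, at 7.35, 7.40 and 8.88 against 7.17, 7.44 and 9.0. Junb was close in both groups, at 10.06, 10.33 and 9.84 against 10.33, 10.28 and 10.11. Fosl1 on 1417487_at read 8.58, 8.45 and 7.70 in the IFNg KO transfer and 8.88, 8.87 and 7.76 in the IL-6 KO transfer. Of the genes around AP-1, only Csf2 was called by limma in this comparison, at -1.31 ± 0.10 (adjusted p = 0.014), with 12.04, 11.95 and 12.07 in the IFNg KO transfer against 13.48, 13.34 and 13.15. Leaving out 1 array gave 0 to 2 AP-1 target genes called lower here. At an unadjusted p under 0.05 there were 7 of 14 AP-1 target genes and 1 of 9 turnover genes, and 0 in each of the other 5 lists. With the block, limma called 6 of 16 other immediate-early genes lower, among them Ier3 (-1.01, adjusted p = 0.00115), Nr4a2 (-0.82, 0.0201), Egr3 (-0.56, 0.0232) and Nr4a1 (-0.44, 0.0244). It also called 5 of 14 AP-1 target genes lower and 1 higher, and 2 of 21 other basic leucine zipper genes lower.

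The largest spread of AP-1 signal in the transfer groups was between replicates. Replicate 3 was above replicates 1 and 2 in both groups on 8 of 12 probe sets, a pattern of 28.1% of all probe sets tested, and by at least 1 log2 unit over their mean in both groups on 3 of 12, a pattern of 2.25%. For Fos the excess was 2.53 in the IL-6 KO transfer and 2.96 in the IFNg KO transfer. For Jun 1417409_at it was 1.69 and 1.5, and for Fosl2 1437247_at it was 1.62 and 1.42. Over all probe sets tested, the 5th and 95th percentiles of this difference were -1.03 and 1.02 in the IL-6 KO transfer and -0.97 and 0.91 in the IFNg KO transfer. Fosl1 1417487_at ran the other way, at -1.13 and -0.82, and Junb differed little, at -0.20 and -0.35. Of 16 other immediate-early genes, 13 were highest in replicate 3 of both groups, with medians of 1.05 and 1.09, while of 10 heat shock genes 3 were, with medians of 0.01 and -0.04. Those 3, named after their values were seen, include Hspa1a (3.37 and 3.25) and Hspa1b (3.1 and 3.02), near-identical inducible Hsp70 genes whose signals may be shared, which exceeded Fos in both groups, and Dnajb1 (0.47 and 0.42). Others of this list were lower in replicate 3 of both groups: Hsph1 (-0.73 and -0.57), Dnaja1 (-0.73 and -0.56), Hspd1 (-0.51 and -0.3) and Hspe1 (-0.19 and -0.28). The same arrays had the high 3' to 5' ratios given above, and summed neutrophil markers reached 985.6 in replicate 3 of the IL-6 KO transfer, against 12.3 to 193.0 on the other 5 transfer arrays. The part of either in the AP-1 values was not tested. In the stimulated groups, replicate 3 exceeded the mean of the others for Fos by 0.15 in BALB and 0.64 in SKG.

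**Figure D4:**
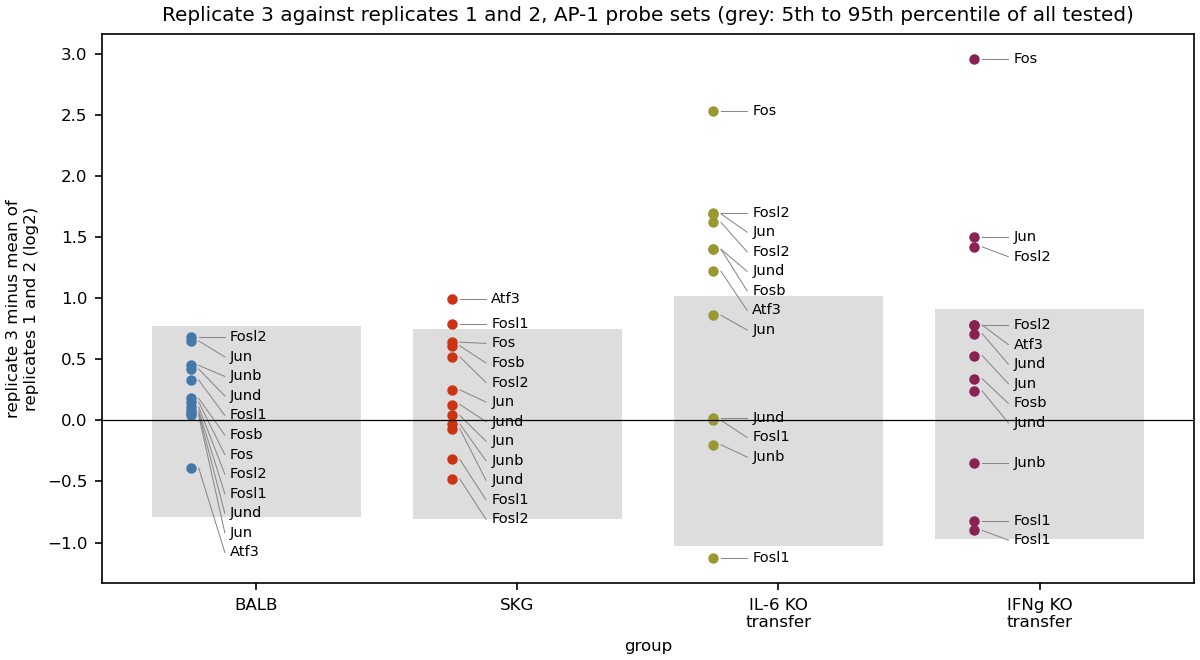
Replicate 3 minus the mean of replicates 1 and 2 (y axis, log2 units) for the 12 AP-1 probe sets in each of the 4 groups (x axis), with a grey band from the 5th to the 95th percentile of all probe sets tested. In the transfer groups Fos (2.53 and 2.96), Jun 1417409_at and Fosl2 1437247_at lie above 1 and Fosl1 1417487_at lies below 0.

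The difference between the 2 comparisons, SKG minus BALB less IFNg KO minus IL-6 KO transfer, was called for 1 of 12 AP-1 probe sets, beside 4.5% of all probe sets tested. This was Jun 1448694_at, at -2.23 ± 0.39 (limma adjusted p = 0.0072). The other Jun probe set gave a like size, -2.18 ± 0.64, and did not pass (limma adjusted p = 0.0744), and Fosl1 1417487_at (-1.49, 0.0999) and Fosb (-1.37, 0.133) did not either. With the replicate number as a block, 6 were called, beside 18.4% of all probe sets: Fos (0.0401), Fosb (0.0137), Fosl1 1417487_at (0.000723), Jun 1417409_at (4.23e-05), Jun 1448694_at (0.000111) and Jund 1449117_at (0.0317). Without the block, 4 of the 12 were called when replicate 3 of the IL-6 KO transfer was left out and 2 when SKG replicate 3 was. The share over all probe sets is not given for these fits. Of the genes around AP-1, the test of the difference called 5 of 14 AP-1 target genes, all higher in SKG against BALB than in the transfer comparison, with Il4 at 7.12 ± 0.85 (limma adjusted p = 0.000734) and Csf2 at 3.83 ± 0.42 (0.000416). Dusp1 (-2.42 ± 0.52, limma adjusted p = 0.0206) and Dusp5 (-1.37 ± 0.31, 0.0258) were called among 16 other immediate-early genes, and Bach1 (-2.24 ± 0.27, 0.000716), Bach2 (-1.98 ± 0.46, 0.0309) and Maf (2.55 ± 0.51, 0.0144) among 21 other basic leucine zipper genes. Mapk14, Rps6ka5 and Nedd4 were called in 3 further lists, 1 in each, and of 10 heat shock genes 0 were called and 0 had an unadjusted p under 0.05. With the block the calls of the difference came to 2 higher and 6 lower among other immediate-early genes, 4 and 5 among factors that switch on Fos and Jun genes, 2 and 4 among kinases and adaptors, 4 and 3 among other basic leucine zipper genes, 6 and 2 among AP-1 target genes and 1 and 2 among turnover genes. Without the block, leaving out 1 array gave 0 to 3 lower among other immediate-early genes, 0 to 2 among kinases and adaptors, 0 to 1 among the factors, 0 to 2 among turnover genes and 1 to 2 in either direction among other basic leucine zipper genes. The pairs of groups differ in age, tissue, stimulation and host, which cannot be told apart here.

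Levels over the 4 groups, described with no test, placed BALB highest for 9 of the 12 probe sets. Fos averaged 12.76 ± 0.10 (SD, n = 3) in BALB, 11.50 ± 0.37 in SKG, 11.0 ± 1.46 in the IL-6 KO transfer and 10.34 ± 1.72 in the IFNg KO transfer, and of neighbours in that order only BALB and SKG were apart beyond their spread (no overlap of arrays, and means further apart than the larger SD). Jun on 1417409_at averaged 10.33 ± 0.05 in BALB, and 8.15 ± 0.30 in SKG, 7.87 ± 0.87 in the IFNg KO transfer and 7.86 ± 0.99 in the IL-6 KO transfer, and none of the latter 3 was beyond the spread of its neighbour. Fosb averaged 8.33 ± 0.11 in BALB, 6.60 ± 0.82 in the IL-6 KO transfer, 6.37 ± 0.39 in SKG and 6.02 ± 0.26 in the IFNg KO transfer, and only BALB was beyond the spread of its neighbour. For Jun on 1417409_at, SKG (7.84 to 8.43) lay below replicate 3 of the transfer groups, which stood apart (8.99 and 8.87), and above their replicates 1 and 2 (7.17 to 7.43). On the other Jun probe set, 1448694_at, SKG (6.76 ± 0.14) was above the IL-6 KO transfer (6.09 ± 0.50) beyond the spread and close to the IFNg KO transfer (6.84 ± 0.31). Fosl1 on 1417487_at had another order, with SKG lowest at 6.89 ± 0.46, beyond the spread from 8.23 ± 0.48 in the IFNg KO transfer, 8.49 ± 0.65 in the IL-6 KO transfer and 8.64 ± 0.22 in BALB. Fosl2 on 1437247_at averaged 11.89 ± 0.06 in BALB, 11.48 ± 0.31 in SKG, 10.49 ± 0.93 in the IL-6 KO transfer and 10.32 ± 0.82 in the IFNg KO transfer. Jund on 1449117_at averaged 11.59 ± 0.24 in BALB and 10.69 ± 0.18 to 10.98 ± 0.81 in the other 3 groups. Atf3 had the order of Fos, from 11.04 ± 0.24 in BALB to 10.40 ± 0.60, 9.80 ± 0.72 and 9.44 ± 0.45, with no neighbours apart beyond their spread. Junb averaged 10.10 ± 0.27 in BALB, 10.10 ± 0.02 in SKG, 10.26 ± 0.12 in the IL-6 KO transfer and 10.10 ± 0.24 in the IFNg KO transfer.

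Family members with their brightest probe sets followed each other unevenly across the 12 arrays, which share 4 groups and the shift of replicate 3, so the values only describe these arrays. Pearson's r was 0.92 between Fosb and Jun, 0.91 between Fos and Fosl2, 0.90 between Fos and Atf3 and 0.88 between Fos and Jun. For Junb it ran from -0.47 with Fos to 0.36 with Fosl1, and for Fosl1 from -0.42 with Fosl2 to 0.36. Among 12176 genes, those most like Fos over the 12 arrays were Zeb1 (r = 0.985), Egr3 (0.984) and Tut7 (0.97). The genes most like Jun were Dusp1 (0.985), Ripor2 (0.976) and Tubb2a (0.976). Those most like Fosb were Kdm2b (0.99), Enc1 (0.971) and Arc (0.97). For Fosl1 they were Bag1 (0.97), Sh2d2a (0.949) and Akna (0.947), and for Fosl2 Paxbp1 (0.989), Rpl12 (0.982) and Msl2 (0.981). Junb had the least alike first gene, Epn2 (0.921), then Sirt4 (0.862) and Med25 (0.858). Jund was most like Gm32031 (0.954), Capn7 (0.953) and Man2a2 (0.952), and Atf3 most like Gbp7 (0.967), Adm (0.965) and Arhgef3 (0.962).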

How the data were processed

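The deposited series matrix gives 1 linear intensity per probe set and array, per its values, from RNA isolated with RNeasy and labelled by in vitro transcription, per the labels' protocols. How the deposited intensities were summarised and scaled: not given in the sources used here. For 45037 probe sets without controls, log2(intensity + 16) was quantile normalized within the 6 arrays of a comparison, or within 12 for levels and for the difference between comparisons. Probe sets with a mean at or above the 40th percentile were tested (floors of 4.74, 4.72 and 4.73) with limma 3.58.1 in R 4.3.3 (lmFit, eBayes with trend), two-sided, with p-values adjusted over all 27022. The scripts were tested on simulated data. Arrays have no read depth, and 3 per group limit the precision.

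Gene names come from the platform annotation: 34958 probe sets have 1 symbol, 932 several and 9160 none listed, and 34754 symbols were updated or kept through RefSeq gene IDs (GRCm38.p6). The text names all members, up to 4 called genes per list and comparison by smallest p, and the 3 genes most correlated with each member. Plaur and Fasl are named besides, as the AP-1 target genes that fell in SKG. Members and lists were chosen with earlier results of these data known. Replicate numbers are shared between groups. Deviations from group means of same-numbered arrays correlated at 0.151, 0.171 and 0.347 (SKG and BALB) and 0.428, 0.404 and 0.679 (transfers). Blocked values are therefore given where they change a call of an AP-1 probe set or a count of a list around AP-1. The tests are otherwise unpaired. Replicates 1 and 2 also correlated across numbers (0.153 and 0.193, and 0.382 and 0.422), so this pairing mainly sets replicate 3 against the others. The alternatives were other constants, filters and normalizations, array weights, no trend, the brightest probe set, 1 fit of 12 arrays, the replicate block and leaving out arrays.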

Additional observations from a re-analysis of the deposited data

Results flagged for a closer look

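The difference between the comparisons for Jun probe set 1448694_at, -2.23 on the log2 scale, is singled out because its estimates had opposite signs in the 2 comparisons, which are of unlike kinds. The test of the difference passed (limma adjusted p = 0.0072). The probe set was lower in SKG than in BALB on all 3 arrays against all 3. It was higher in the IFNg KO than in the IL-6 KO transfer by 0.76, with overlapping groups, a change that was not called. The brighter Jun probe set 1417409_at gave a difference of -2.18 without passing (limma adjusted p = 0.0744), and its change between the transfer groups was 0.01.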

How the results depend on the processing

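The count of AP-1 probe sets called in SKG against BALB was 7 and became 4 with all 12 arrays in 1 fit and 6 to 8 when 1 array was left out. Over all probe sets these fits called 5446, 4834 and 2938 to 6472. Between the transfer groups the AP-1 count was 0 and stayed 0 without 1 array. It was 1 with the replicate block, beside 1.17% of all probe sets. With replicates 1 and 2 only (added after the data were seen) it was 2, beside 2.68%. For the difference between comparisons the AP-1 count was 1, beside 4.5% of all probe sets, and 6 with the replicate block, beside 18.4%. It was 5 with array weights, 2 with trimmed mean scaling, 2 with no normalization and 0 of 8 with the brightest probe set of each gene (fewer probe sets). With replicates 1 and 2 only it was 8, and without 1 array 1 to 4. The share over all probe sets is not given for these other settings, so their counts do not set AP-1 apart from other genes. The block changed the calls named beside the results and no other call of an AP-1 probe set. The cause of these moves was not tested.

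Signs that turned belonged to changes that were not called in the main fit. Fos was among them, both between the transfer groups and in the difference between comparisons. With the replicate block Fos was nonetheless called in both (limma adjusted p = 0.0274 and 0.0401), so these calls belong to estimates whose sign turned without 1 array. Junb in SKG against BALB was 0.00 with a constant of 1, 0.00 with 12 arrays, 0.12 with array weights, 0.16 with replicates 1 and 2 only, and -0.11 to 0.15 without 1 array. In the transfer comparison, Jun 1417409_at was 0.00 with a constant of 64, -0.04 with no normalization and -0.49 to 0.57 without 1 array. Jund 1440265_at was -0.23 with a constant of 1, -0.04 with array weights, -0.06 with replicates 1 and 2 only and -0.07 to 0.30 without 1 array. Jund 1449117_at was 0.04 with weights, 0.04 with replicates 1 and 2 only and -0.42 to 0.28 without 1 array, and Fosl2 1422931_at was 0.01 with replicates 1 and 2 only and -0.58 to 0.27 without 1 array. Without 1 array, Fos ranged over -1.62 to 0.18, Atf3 over -0.63 to 0.05, Fosl1 1417487_at over -0.63 to 0.01 and Fosl2 1437247_at over -0.64 to 0.37. For the difference between comparisons, Fos ranged over -1.43 to 0.39, Fosl2 1437247_at over -0.77 to 0.23 and Jund 1440265_at over -0.09 to 0.47, and Jund 1440265_at in SKG against BALB over -0.09 to 0.47. Jund 1440265_at and Fosl1 1417488_at lie near the floor, which limits them.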

Other observations

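Izumo1r, which encodes FR4, the marker of the gate, read 6.43, 6.38 and 6.13 in BALB replicates 1, 2 and 3 over the 12-array scale, and 6.98, 7.14 and 7.35 in SKG. BALB replicate 1, labelled without the FR4 gate, was thus close to replicate 2, and all 3 SKG arrays of FR4- cells were above it. In the transfer groups, which have no FR4 gate in their labels, it read 7.49 to 8.67.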
